A study of Mus musculus with 5 samples.

Results

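Mouse Ubb, which codes for chains of ubiquitin, its pseudogene Ubb-ps, and Rps27a, which codes for ubiquitin joined to a ribosomal protein, were followed in 5 RNA-seq libraries of BrafV600E thyroid tumor cells. These 3 genes (NCBI gene numbers 22187 for Ubb, 218963 for Ubb-ps and 78294 for Rps27a) were taken by symbol from the 17923 genes listed by the authors. They were picked with the measured values known, because Ubb-ps was high in the libraries labelled wild type for Ctnnb1 and low in the others. The contrast that chose them is therefore described without a test.

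The study compared tumor cells with and without Ctnnb1, the gene of β-catenin, to learn what the loss of β-catenin does to BrafV600E-driven thyroid cancer cells. BVE-Ctnnb1wt (2 libraries, called wt) and BVE-Ctnnb1null (3 libraries, called null) cells all carried BRAFV600E, were labelled thyroid epithelial cells, and were immortalized lines grown out of thyroid tumors of donor mice. The null cells were also labelled as carrying the deletion of CTNNB1. By their labels the wt libraries came from the line BVE at passage 20. Thyroid-stimulating hormone (TSH) was absent for replicate 1 and present for replicate 2. The null libraries bore 3 line names: BVECTN_4 at passage 8 without TSH for replicate 1, BVECTN_4A at passage 11 for replicate 2 and BVECTN_5 at passage 7 for replicate 3, with TSH not stated for the last 2. The protocol text has other passage numbers, near 25 (wt) and 20 (null). Genotype cannot be told apart from line and passage, and the spread between the wt libraries is that of a single line, with TSH as a further difference between them.

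Ubiquitin is a small protein that is attached to other proteins by E1, E2 and E3 enzymes, often as a mark for degradation by the proteasome, and is removed and recycled by deubiquitinases. Mammalian cells make it only as fusions that are cut after synthesis. Ubb codes for head-to-tail ubiquitin units and is known to respond to stress, while Rps27a codes for a ubiquitin unit followed by a protein of the small ribosomal subunit. A processed pseudogene is a copy of a messenger RNA that was written back into the genome.

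In the GENCODE M21 transcripts of build GRCm38, Ubb held 4 ubiquitin units and Rps27a 1, every unit being 228 bases long and coding for the same 76 residues. The first 60 bases of the first unit are shown because they carry the difference in letters that lets reads of the coding members be told apart. They lie in coding exons at chr11:62552146-62552205 on the plus strand for Ubb, and at chr11:29547249-29547728 on the minus strand, across an intron, for Rps27a. Capitals mark the 12 bases that differ from Ubb.
Ubb first unit: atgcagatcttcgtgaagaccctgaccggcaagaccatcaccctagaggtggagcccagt
Rps27a first unit: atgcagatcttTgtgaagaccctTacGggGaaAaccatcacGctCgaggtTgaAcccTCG
Over whole units, those of Ubb were 95.6% to 99.1% identical to each other and 80.7% identical to that of Rps27a.

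Ubb-ps is the entry Gm1821 of GENCODE, a transcribed processed pseudogene at chr14:46084028-46085000 on the plus strand, while Ubb lies at chr11:62551171-62553213. Its 685-base model of 1 exon aligned to bases 662 to 1346 of the Ubb transcript with no gap and 10 differences, an identity of 98.5%. Counted from the start of that alignment, with the Ubb base first, these were G43A, A187G, T253C, G415A, T439C, C442T, A448G, C481T, T497C and T529C. All 10 Ubb-ps bases occur at the same place of another Ubb unit, so no single base in the alignment is particular to Ubb-ps and only combinations are. The stretch that carries such a combination is printed from the 685-base model (chr14:46084289-46084396), above the 3 places of Ubb exon 2 at the same unit positions (chr11:62552309-62552416, chr11:62552537-62552644 and chr11:62552765-62552872). Capitals mark the 6 positions at which the 4 stretches vary.
Ubb-ps: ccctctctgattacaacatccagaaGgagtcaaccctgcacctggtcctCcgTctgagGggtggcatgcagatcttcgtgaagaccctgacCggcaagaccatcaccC
Ubb units 1 and 2: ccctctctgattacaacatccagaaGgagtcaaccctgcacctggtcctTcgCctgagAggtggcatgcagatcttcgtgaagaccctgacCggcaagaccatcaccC
Ubb units 2 and 3: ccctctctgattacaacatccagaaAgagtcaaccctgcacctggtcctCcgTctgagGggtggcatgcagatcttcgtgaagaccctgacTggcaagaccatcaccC
Ubb units 3 and 4: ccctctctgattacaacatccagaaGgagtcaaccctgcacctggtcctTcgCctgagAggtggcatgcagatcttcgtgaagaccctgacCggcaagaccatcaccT
Over these 108 bases Ubb-ps differed from Ubb at 3, 2 and 4 positions.

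GENCODE ties the RefSeq transcript of Ubb-ps to its other model, which has 750 bases in 2 exons and skips 223 bases, and 28 of the 108 bases printed above lie in its exons. The transcript counted by the authors was 703 bases long, and the span of the gene in the RefSeq table was 228 bases longer than that, which is the length of 1 ubiquitin unit. Its own sequence was not used here, so both models are given. The junction of the 750-base model is shown beside the same unit positions of Ubb. Capitals mark the 5 unit positions that stand on both sides of the junction and so occur again after it in this model, with letters that are not all the same in both places.
Ubb-ps junction: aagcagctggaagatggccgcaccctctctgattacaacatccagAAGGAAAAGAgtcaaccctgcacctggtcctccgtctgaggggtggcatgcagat
Ubb same stretch: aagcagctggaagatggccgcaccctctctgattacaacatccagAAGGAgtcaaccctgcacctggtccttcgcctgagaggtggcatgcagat
None of the 49 windows of 50 bases that cross this junction occurs in Ubb.

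Library totals of estimated counts were 30432737 (wt replicate 1), 30713079 (wt replicate 2), 29929677 (null replicate 1), 29360002 (null replicate 2) and 29415980 (null replicate 3). A count of 0 is compatible with up to 3 counts, or 0.098 to 0.102 CPM (counts relative to the library total), as far as counting error goes. The 10 genes with most counts took 14.3% and 15% of the wt libraries and 6.93%, 8% and 7.92% of the null libraries. FPKM, a count divided by transcript length and library size, was used to compare levels between genes.

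Ctnnb1, the gene labelled as deleted, was listed at 59.3 and 73.8 FPKM in the wt libraries and at 125, 196 and 118 FPKM in the libraries labelled null. In FPKM every library labelled null thus lay above both wt libraries, as for 35.8% of the genes tested. In TMM-scaled CPM (corrected for the composition of the libraries) Ctnnb1 was at 251 and 356 in the wt and 418, 572 and 344 in the null libraries, where null replicate 3 lay between the wt libraries. On neither scale did the libraries labelled null lie below the wt libraries as a group, so the deletion is not visible in the total level of the transcript. In the fit described below its log2 fold change was 0.55 (SE 0.44), with an adjusted p of 0.517 by edgeR. The counts are per whole transcript and do not show whether exons are missing.

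Thyroid follicular markers were low, with sums over 7 genes of 11.5 and 16.5 FPKM in the wt and 33.9, 48.3 and 3.45 FPKM in the null libraries. Nkx2-1, a thyroid transcription factor, gave most of the sum in both wt libraries (9.21 and 15.0 FPKM) and in null replicate 2 (34.8 FPKM). Pax8, another thyroid transcription factor, gave most of it in null replicates 1 and 3. Pax8 was listed at 0.40 and 0.17 FPKM in the wt and at 18.2, 12.8 and 2.56 FPKM in the null libraries, with every null library above both wt libraries, as for 35.8% of all genes tested. Tg, the thyroid hormone precursor, lay the other way, at 0.80 and 0.86 against 0.04, 0.51 and 0.34 FPKM, as for 7.22%. Neither Pax8 nor Tg overlapped between the groups in TMM-scaled CPM either. Epithelial markers (5 genes) summed to 1042 and 1691 FPKM in the wt and 9821, 688 and 1110.2 FPKM in the null libraries. Krt8 was the most abundant of them in the wt libraries (634 and 1104 FPKM), Krt7 in null replicates 1 and 3 (5131 and 461 FPKM) and Krt18 in null replicate 2 (346 FPKM). Epcam and Cdh1 were not listed in null replicate 2 (transcripts are listed from 0.01 FPKM, and a gene that is not listed is given as 0). Fibroblast markers (7 genes, most abundant Col1a1) summed to 289.8 and 255 FPKM in the wt and 1.57, 148 and 1312 FPKM in the null libraries. Of 6 leukocyte markers, Ptprc, Adgre1 and Cd3e were not listed in any library, and Cd68, the most abundant, reached 59.8 FPKM in null replicate 1. The 4 endothelial markers summed to at most 0.66 FPKM. The null libraries thus lay on both sides of the wt libraries in the follicular, epithelial, fibroblast and leukocyte sums, and these sums varied more among the null than among the wt libraries.

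Ubb-ps was listed at 242 and 269 FPKM in wt replicates 1 and 2, and at 0.27, 1.02 and 1.63 FPKM in null replicates 1, 2 and 3. The groups did not overlap: the lower wt library was 148 times the highest null library. The means were 256 ± 19.5 FPKM (SD, n = 2) and 0.973 ± 0.681 FPKM (SD, n = 3), a ratio of 263. In estimated counts the libraries held 5043 and 5676 against 5.47, 20.4 and 32.6. By level Ubb-ps was the gene of rank 334 and 304 in the wt and of rank 12170, 10484 and 9960 in the null libraries. The edgeR fit gave a log2 fold change of -8.67 (SE 0.85), null against wt. Every null library lay below both wt libraries in FPKM for 7.22% of the 13262 genes tested, and nothing is read from the place of Ubb-ps among them, since it was picked on this contrast. In bulk RNA, fewer cells that express a gene and less of its RNA per cell cannot be told apart. The follicular, epithelial, fibroblast and leukocyte sums above did not separate the groups, whereas Pax8 and Tg within the follicular list, the share of the 10 most counted genes and the endothelial sum (0.02 FPKM in both wt, 0.05 to 0.66 in the null libraries) did. The part of these in the level of Ubb-ps was not tested.

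**Figure D1:**
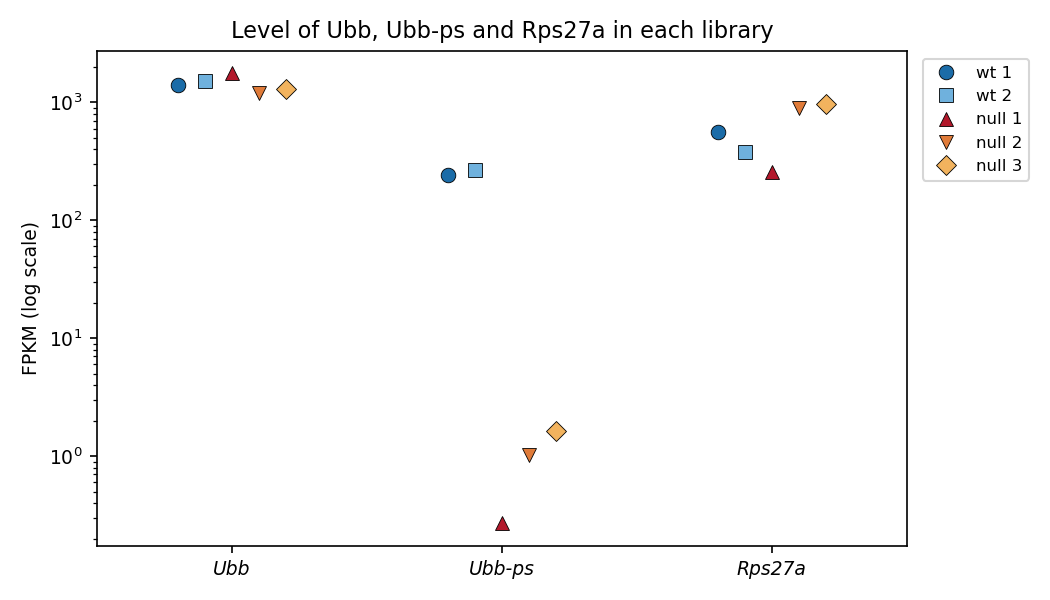
FPKM on a log axis for Ubb, Ubb-ps and Rps27a, with 1 point per library (wt 1 and 2, null 1 to 3). Ubb-ps lies at 242 and 269 FPKM in the wt libraries and between 0.27 and 1.63 FPKM in the null libraries, while Ubb and Rps27a stay at or above 256 FPKM in all 5 libraries.

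The likeness of Ubb-ps to Ubb bears on these counts. Of the 636 windows of 50 bases in the 685-base model, 593 occur letter for letter in Ubb and 43 (6.76%) in no other annotated transcript. With windows of 100 bases these numbers were 452 of 586 and 134 (22.9%). The 750-base model gave 583 of 701 windows of 50 bases found in Ubb and 76 (10.8%) of its own, and at 100 bases 458 of 651 and 151 (23.2%). Seen from Ubb, 884 of 1450 windows of 50 bases occur in Ubb-ps and 565 (39%) are its own. The read length is not given in the sources used here, so neither window length stands for the reads themselves.

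**Figure D2:**
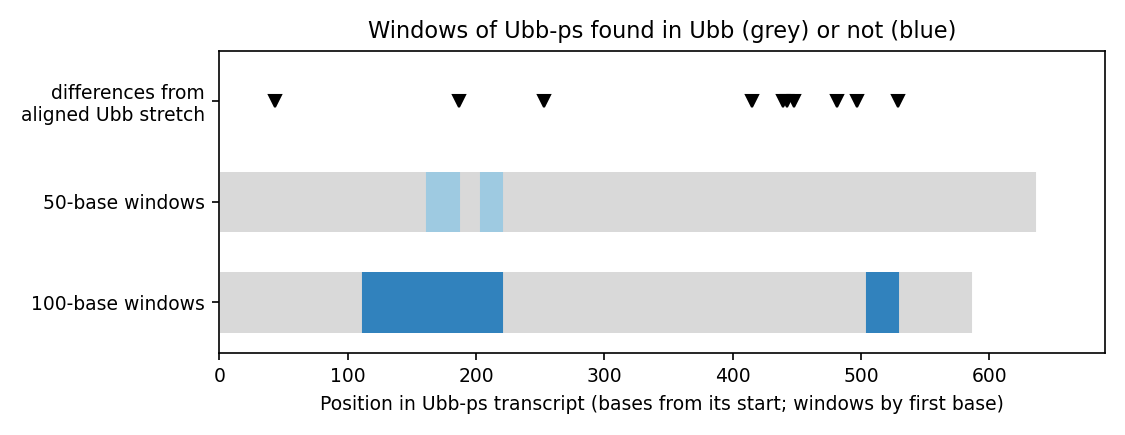
Position along the 685-base Ubb-ps model (bases, x axis) of its 10 differences from the aligned Ubb stretch (triangles) and of the first base of each 50-base and 100-base window, grey where the window occurs in Ubb and blue where it does not. The 43 blue windows of 50 bases fall in the first part of the model, and the 134 of 100 bases in that part and in a smaller group near position 500.

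Estimated counts are not whole where reads that fit several transcripts are divided among them, so the fractions show which genes shared reads. Ubb and Ubb-ps had counts that were not whole in any of the 5 libraries, and neither was their sum within 0.025, which came to 54294.11 and 60343.16 in the wt and 61018.95, 40886.39 and 43972.35 in the null libraries. The division of reads was thus not limited to this pair. The counts of Rps27a, in contrast, were whole within 0.025 in 5 of 5 libraries, as a division among its own 2 transcripts alone would leave them. For comparison, 12764 of 17923 genes (71.2%) were whole within 0.011 in every library.

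Ubb-ps took 9.29% (95% exact Clopper-Pearson interval 9.05 to 9.54) and 9.41% (9.17 to 9.64) of the counts of Ubb and Ubb-ps together in the wt libraries. In the null libraries it took 0.00896% (0.00266 to 0.0191), 0.05% (0.0299 to 0.0755) and 0.0742% (0.0517 to 0.105). This share does not depend on the scaling between libraries, and the intervals cover counting error only, not the division of reads. In the null libraries 40866 to 61013 Ubb counts went with at most 32.6 Ubb-ps counts. What part of the Ubb-ps counts in the wt libraries came from Ubb transcripts was not tested. The sum of their estimated counts does not depend on how reads were divided between them, and was 54294 and 60343 in the wt and 61019, 40886 and 43972 in the null libraries. In TMM-scaled CPM it was 2120 and 2674 in the wt and 1880, 1141 and 1230 in the null libraries, so that every null library lay below both wt libraries, as for 17.3% of the genes tested, and the log2 fold change on this scale was -0.76 (SE 0.40). In FPKM, whose sum does move with the division because the transcripts differ in length (1165 bases for Ubb, 703 for Ubb-ps), it was 1637 and 1802 in the wt and 1768, 1208 and 1295 in the null libraries. On that scale the groups overlapped, with means of 1720 ± 117 FPKM (SD, n = 2) and 1424 ± 301 FPKM (SD, n = 3).

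Among the 657 genes with at least 100 FPKM in both wt libraries, Ubb-ps was 1 of 3 with less than 2 FPKM in every null library. These limits were chosen after the values were seen. The other 2 were Vip, a neuropeptide gene, at 162 and 159 FPKM against 0.07, 0.83 and 0.02 FPKM, and NCBI gene 14980, which has no symbol in the tables used here, at 145.9 and 138 FPKM against 0, 0.06 and 0 FPKM. Just outside lay Cxcl14, which codes for a chemokine, at 338 and 286 FPKM against 0.05, 4.23 and 0 FPKM. In the other direction, 499 genes reached 100 FPKM in all 3 null libraries and 0 of them were under 2 FPKM in both wt libraries. Over the 5 libraries, the genes nearest to Ubb-ps in profile were Ptgis, which codes for prostacyclin synthase, at a distance of 1.93, Crabp1, which codes for a retinoic acid binding protein, at 2.28, and Eno1b, a copy of an enolase gene, at 2.71. The measure was the Euclidean distance between log2(FPKM + 0.1) profiles centred on each gene's mean, over 10826 genes. Ptgis was listed at 53.3 and 64.5 FPKM in the wt and at 0.04, 0.04 and 1.2 FPKM in the null libraries. Eno1b can share reads with its parent gene, so its level is uncertain. Ptgis and Eno1b reached the mean of 1 FPKM required for this ranking only through the wt libraries. The contrast that picked Ubb-ps enters these distances, so nothing is read from the likeness.

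The files list 59 genes with a symbol ending in -ps or in -ps and a number, of which 9 reached 100 FPKM in some library. The 5 most abundant by wt level were Rpl31-ps12, Rpl34-ps1, Rps15a-ps6, Oaz1-ps and Ubb-ps. Rps15a-ps6 was listed at 448 and 455 FPKM in the wt and 79.2, 347 and 310.1 FPKM in the null libraries, and Oaz1-ps at 315 and 349.6 against 229, 330.01 and 221 FPKM. In FPKM Atp6v0c-ps2 lay higher in every null library, at 65.6 and 74.5 against 223, 86.5 and 158, as for 35.8% of the genes tested. Its log2 fold change by edgeR was 0.58 (SE 0.55), with an unadjusted p of 0.325 and an adjusted p of 0.580. Such copies can share reads with their parent genes, so their levels are uncertain. Of the 58 others, 57 were tested, and 0 were called in either direction by edgeR, while 3 were higher and 4 lower at an unadjusted p under 0.05, beside 12.4% and 6.07% of all genes tested. DESeq2 called 2 higher and 3 lower, beside 8.39% and 3.66%. The median log2 fold change of these 57 was 0.26, beside 0.30 over all genes tested. It was 0 without null replicate 2, 0.66 without wt replicate 1 and -0.47 with at least 10 counts in every library. Rps27a-ps1, Rps27a-ps2 and Rps27a-ps3, annotated copies of Rps27a, are not listed in these files.

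Levels of the nearest listed genes on both sides of Ubb-ps differed in direction between the groups. These genes lay far from Ubb-ps, from -707.1 kb (Styx, toward lower coordinates) to 690.6 kb (Cnih1). The closest was Gm15217 at 294.6 kb. Ddhd1, which codes for a phospholipase and is next on one side, was listed at 1.63 and 1.2 FPKM in the wt and 1.98, 3.31 and 1.77 FPKM in the null libraries. On the other side Bmp4, which codes for a growth factor, was listed at 9.32 and 9.48 against 0.54, 14.1 and 5.75 FPKM. Cnih1, a cargo receptor gene, was listed at 82.5 and 63.1 against 50.1, 104.3 and 97 FPKM. Of the 10 nearest listed genes, 1 had every null library below both wt libraries, beside 7.22% of all genes tested. This was Rubie, at 0.26 and 0.05 against 0.02, 0 and 0 FPKM. In 2 of the 10, Ddhd1 and Styx, every null library lay above both wt libraries, beside 35.8%. Styx was listed at 0.11 and 0.05 against 0.43, 2.96 and 1.64 FPKM.

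**Figure D3:**
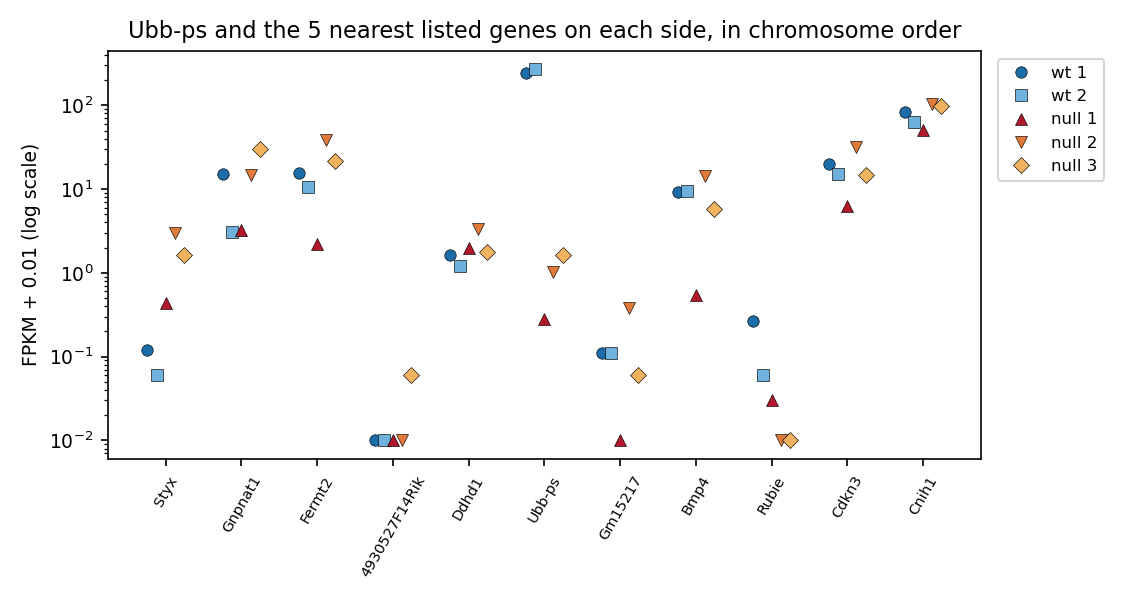
FPKM plus 0.01 on a log axis for Ubb-ps and the 5 nearest listed genes on each side of it, in chromosome order, with 1 point per library. Ubb-ps is at 242 and 269 FPKM in the wt libraries and at most 1.63 FPKM in the null libraries, while Ddhd1, Bmp4, Cdkn3 and Cnih1 each have at least 1 null point above their wt points.

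Ubb was listed at 1395 and 1533 FPKM in the wt libraries and at 1768, 1207 and 1294 FPKM in null replicates 1, 2 and 3. The highest and the lowest values were both in the null group, so the groups overlapped. The means were 1464 ± 97.3 FPKM (SD, n = 2) and 1423 ± 302 FPKM (SD, n = 3). In TMM-scaled CPM Ubb was at 1923 and 2422 in the wt and 1880, 1140 and 1229 in the null libraries. On this scale the null libraries lay below the wt libraries, as they did for 17.3% of the genes tested, and the log2 fold change was -0.62 (SE 0.41). On the FPKM scale it was -0.06. Across the 11797 genes common to the fits, the median log2 fold change was 0.21 with TMM, 0.13 with the size factors of DESeq2 and 0.61 on log2(FPKM + 0.1). Relative to these medians the difference of Ubb was -0.83, -0.84 and -0.67. The genes nearest to Ubb in profile were Rab4b, a small GTPase gene of endosome recycling, at a distance of 0.134, Rrp7a, a gene of ribosomal RNA processing, at 0.151, and Echs1, a gene of fatty acid oxidation, at 0.157. Rab4b was listed at 43.9 and 46.2 FPKM in the wt and 55.2, 35.6 and 36.2 FPKM in the null libraries.

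Rps27a, the fusion of ubiquitin with a protein of the small ribosomal subunit, was listed at 562 and 379 FPKM in the wt libraries and at 256, 895 and 963 FPKM in null replicates 1, 2 and 3. The wt libraries lay inside the range of the null libraries, whose replicate 1 was the lowest of all 5 and replicate 3 the highest. The highest level was 3.76 times the lowest. Means were 470.4 ± 129.9 FPKM (SD, n = 2) and 705 ± 389.9 FPKM (SD, n = 3). The log2 fold change was -0.02 (SE 0.59) by edgeR and 0.39 on the FPKM scale, so its sign depended on the scaling, while relative to the median of the 11797 common genes on each scale it was -0.23 and -0.23. By edgeR it was also positive without wt replicate 1 (0.11) and without null replicate 1 (0.32), and -0.5 with the replicate number as a block. It was the only gene of these listed with more than 1 transcript. The 726-base transcript held between 96.8% and 98.3% of its counts, and the 821-base transcript the rest. The 821-base share was 3.07% and 3.09% in the wt and 3.18%, 2.81% and 1.67% in the null libraries. The profile nearest to Rps27a was that of Hspe1, a mitochondrial chaperonin gene, at a distance of 0.165, with 145 and 107 FPKM in the wt and 74, 245 and 243 FPKM in the null libraries. Clhc1, which overlaps Rps27a in the RefSeq table, was listed at no more than 0.03 FPKM.

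Rps27a stood low among the genes of ribosomal proteins. It was 0.17 and 0.127 times the median FPKM of 77 other such genes in the wt and 0.206, 0.459 and 0.494 times that median in the null libraries. Below it lay 4 and 2 of the 77 (wt libraries) or 5, 13 and 12 of them (null libraries). Of the windows of 50 bases in Rps27a, 72% also occur in other annotated transcripts, among them pseudogene copies that are not listed in these files.

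In FPKM the order of the members was Ubb, Rps27a and Ubb-ps in all 5 libraries. In the wt libraries Ubb (1464 ± 97.3), Rps27a (470.4 ± 129.9) and Ubb-ps (256 ± 19.5) were apart in every library, with Rps27a and Ubb-ps the closest neighbours. In the null libraries the gap between Ubb and Rps27a varied, with 1768 and 256 FPKM in replicate 1, 1207 and 895 in replicate 2 and 1294 and 963 in replicate 3, and Ubb-ps was far below both.

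**Figure D4:**
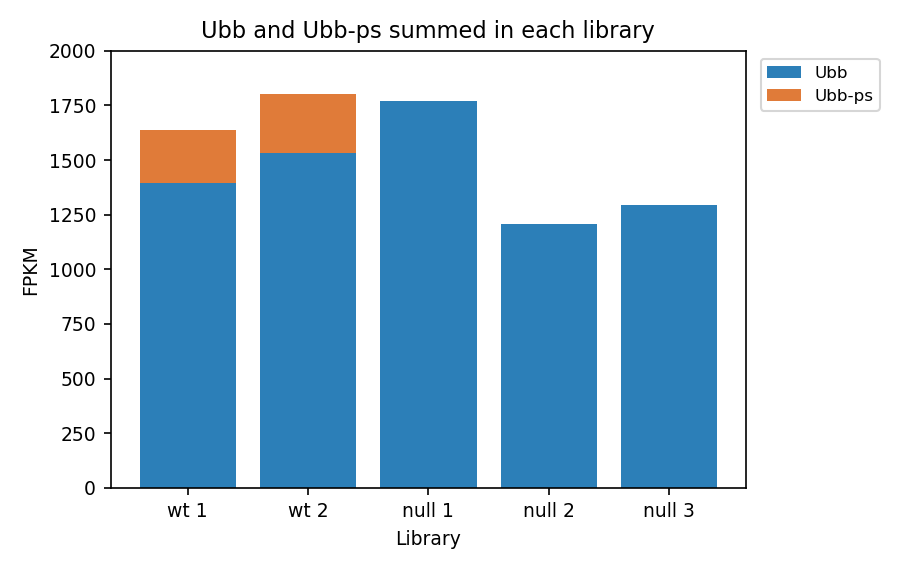
FPKM of Ubb (blue) and Ubb-ps (orange) stacked for each library, on a linear axis from 0. Ubb-ps adds 242 and 269 FPKM to the wt bars and at most 1.63 FPKM to the null bars, and the summed bars of the groups overlap, at 1637 and 1802 FPKM in the wt and between 1208 and 1768 FPKM in the null libraries.

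Between the wt libraries, which differ in TSH by their labels, replicate 2 was 1.1 times replicate 1 for Ubb, 1.11 times for Ubb-ps, and 0.673 times for Rps27a in FPKM. With 1 library each these differences have no replicate check.

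For the other genes of the ubiquitin system, edgeR's quasi-likelihood test was run over 13262 genes with Benjamini-Hochberg adjustment. At an adjusted p under 0.05 it called 0 genes higher (0%) and 0 lower (0%) in the null libraries. The lowest adjusted p was 0.0842, and at an unadjusted p under 0.05 there were 1643 genes higher (12.4%) and 805 lower (6.07%). DESeq2 called 1113 higher (8.39%) and 486 lower (3.66%). No gene of the lists below therefore passed the main test, and they are described by their counts at the unadjusted p, by DESeq2, and by their median log2 fold change beside the 0.30 of all genes.

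Of 12 ubiquitin-like modifiers, 0 reached the unadjusted p and DESeq2 called 0 in either direction, and their median was -0.42 by edgeR and 0.14 on the FPKM scale. Relative to the median of the 11797 common genes, which moved from 0.21 to 0.61 between these scales, that was -0.64 and -0.47, lower on both. Nedd8, which activates cullin ligases, was listed at 199 and 206 FPKM in the wt and 90.3, 205 and 168 FPKM in the null libraries. Of 33 E1 and E2 enzymes, 5 were higher and 1 lower at the unadjusted p, beside 12.4% and 6.07% of all genes tested. DESeq2 called 4 higher and 0 lower, beside 8.39% and 3.66%. The median of the 33 was 0.33, or 0.04 without null replicate 2 and 0.12 without null replicate 3. This median was 0.15 with the replicate number as a block and 0.87 on the FPKM scale. Relative to the median of the common genes it was 0.11 by edgeR and 0.25 on the FPKM scale. In FPKM every null library lay above both wt libraries for 19 of the 33, beside 35.8% of all genes tested, and in TMM-scaled CPM for 10 of the 33, beside 22.5%. Every null library lay below both wt libraries for 0 of the 33 in FPKM, beside 7.22%, and for 5 in TMM-scaled CPM, beside 17.3%. Ube2h, an E2 enzyme, was listed at 13.7 and 10.6 against 45.4, 26.4 and 46.6 FPKM, with a log2 fold change of 1.13 (SE 0.47). Ube2l6, which conjugates the modifier ISG15, was listed at 24.6 and 28.7 against 9.39, 11.1 and 25.6 FPKM. Both missed the main test, with adjusted p values of 0.269 for Ube2h and 0.256 for Ube2l6 by edgeR.

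Of 40 deubiquitinases, 6 were higher and 3 lower at the unadjusted p, beside 12.4% and 6.07% of all genes tested. DESeq2 called 4 higher and 2 lower, beside 8.39% and 3.66%. The median of the 40 was 0.43, or 0.25 without wt replicate 1 and 0.12 with the replicate number as a block. Relative to the median of the common genes it was 0.22 by edgeR and 0.14 on log2(FPKM + 0.1). Usp7, which acts on p53 and its ligase, was listed at 4.08 and 2.76 FPKM in the wt and 13.2, 19.7 and 11.8 FPKM in the null libraries, and Usp22, which acts on histones, at 14.8 and 11.7 against 47.2, 40.4 and 44.3 FPKM. Usp11 had the largest negative value among those named by the rule, at 21.3 and 27.1 against 8.21, 11.2 and 2.85 FPKM (log2 fold change -2.30, SE 0.63). The adjusted p by edgeR was 0.225 for Usp22, and Usp7 and Usp11 also missed the main test. Usp7 reached the mean of 10 FPKM required for naming only through the null libraries, and Usp11 only through the wt libraries. These genes were picked for their fold changes, so nothing is read from the differences of Usp7 and Usp11.

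Of 45 proteasome subunits and related factors, 1 was higher and 13 lower at the unadjusted p, beside 12.4% and 6.07% of all genes tested. DESeq2 called 1 of the 45 higher and 9 lower, beside 8.39% and 3.66%. Their median was -0.55 by edgeR and 0.02 on the FPKM scale, and -0.76 and -0.59 relative to the median of the common genes. Without wt replicate 1 the edgeR median was -0.87. The lowest log2 fold changes among the abundant members were those of Psmb10, a catalytic subunit of the immunoproteasome, at -2.39 (SE 0.60), and of Psme2, part of the proteasome activator that interferon induces, at -2.07 (SE 0.40). Psme2 was listed at 182 and 219 FPKM in the wt and at 74.5, 65 and 77.6 FPKM in the null libraries, with no overlap, as for 7.22% of the genes tested. Psmc6, an ATPase subunit of the regulatory particle, was listed at 14.3 and 9.82 against 9.61, 46.8 and 73.6 FPKM. For Psme2 the adjusted p was 0.18 by edgeR and 0.000139 by DESeq2. Psmb10 missed the main test and reached the mean of 10 FPKM required for naming only through the wt libraries. Both were picked for their fold changes, and nothing is read from that of Psmb10.

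Of 18 heat shock genes, 3 were higher and 0 lower at the unadjusted p, beside 12.4% and 6.07% of all genes tested. DESeq2 called 2 higher, beside 8.39%. The median of the 18 was 0.51, or 0.25 without null replicate 3 and 0.30 without wt replicate 1. This median was 0.19 with the replicate number as a block and 0.87 on log2(FPKM + 0.1). Relative to the median of the common genes it was 0.3 by edgeR and 0.26 on log2(FPKM + 0.1). Hspa1b, an inducible HSP70 gene, was listed at 0.86 and 0.76 FPKM in the wt and at 14.5, 9.84 and 25.8 FPKM in the null libraries (log2 fold change 3.77, SE 0.66). It missed the main test. Hspa1b reached the mean of 10 FPKM required for naming only through the null libraries. It was also picked for its fold change, so nothing is read from that value. Cryab, a small heat shock protein gene, was listed at 16.3 and 25.5 against 194, 69.8 and 93.8 FPKM. Hspb8, another of that family, was listed at 128.6 and 103 FPKM in the wt and at 0.77, 6.03 and 124 FPKM in the null libraries, where replicate 3 lay with the wt libraries.

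Of the 77 other genes of cytosolic ribosomal proteins, 0 were higher and 64 lower at the unadjusted p, DESeq2 called 52 lower, and the median log2 fold change was -1.55 by edgeR and -1.0 on the FPKM scale. In TMM-scaled CPM every null library lay below both wt libraries for 76 of the 77, beside 17.3% of all genes tested. Their FPKM summed to 297518 and 300752 in the wt and to 116497, 149854 and 166798 in the null libraries. Rps3 was listed at 4917 and 5245 FPKM in the wt and 1964, 1359 and 1263 FPKM in the null libraries, and Rps29 at 2184 and 2773 against 638, 845 and 539 FPKM. In the main fit Rps27a, with -0.02 (SE 0.59), lay above all 77, whose highest value was the -0.38 of Rpl30 (SE 0.77). With the replicate number as a block Rps27a was at -0.5, and its rank among the 77 was not examined under the alternatives. The fits share their libraries, and many ribosomal protein genes have near-identical copies among which reads may be split, so single values of this family are uncertain.

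**Figure D5:**
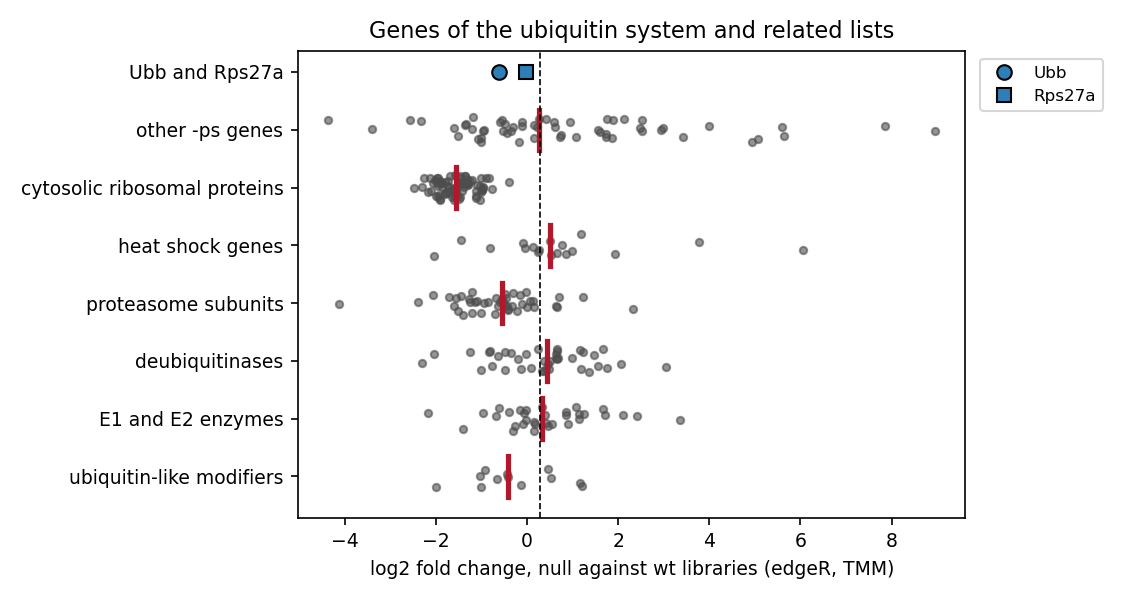
Log2 fold change of null against wt libraries (edgeR, TMM scaling) for the tested genes of each list, with 1 grey point per gene, red bars for list medians, blue symbols for Ubb and Rps27a and a dashed line at the 0.30 median of all genes tested. Points of the ribosomal protein genes lie from -2.48 to -0.38, while Rps27a is at -0.02.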

How the data were processed

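RNA of 2 BVE-Ctnnb1wt and 3 BVE-Ctnnb1null libraries was sequenced on an Illumina instrument from TruSeq libraries, per the study's methods. The aligner, counting program, genome build and annotation are not given in the sources used here. The authors deposited 1 table a library, with an estimated count and an FPKM for every RefSeq transcript, the latter relative to length and to depth. Transcripts are listed from 0.01 FPKM upward, replicates were not pooled, and the labels and the protocol text differ in passage numbers. The study speaks of 3 biological replicates, while the labels give 2 wt libraries.

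Counts and FPKM were summed per NCBI gene number, and sums of counts were rounded. Symbols came from the RefSeq table of GRCm38.p6 (17866 of 17923 genes matched). The main fit used edgeR 4.0.16 in R 4.3.3 (TMM, filterByExpr by group, glmQLFit, glmQLFTest, adjusted p under 0.05). Members, genes of the lists, the other -ps genes and Ctnnb1 were kept whatever that filter, if they had any count. Alternatives were DESeq2 1.42.0, no count filter, at least 10 counts per library, limma 3.58.1 on log2(FPKM + 0.1, 0.01 or 1) for genes with 0.5 FPKM in 2 libraries, leaving out each library, and the replicate number as a block. The edgeR, DESeq2 and limma fits were also run on simulated counts, from which nothing is read about the calls in these libraries. All 3 members stayed in the main fit whatever the filter on low counts. Sequences were GENCODE M21 transcripts (Python 3.11.15, scipy 1.17.1). Because the authors' build is not given, coordinates are those of the GENCODE sequences, and values were joined by gene number alone.

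The 3 members, the lists and the rule for named genes were chosen with earlier results of these data known. The rule named the members, their copies, Ctnnb1, the 2 highest and 2 lowest log2 fold changes of each of 6 lists among genes with a mean of at least 10 FPKM, and the 5 genes nearest in profile to each member among genes with a mean of at least 1 FPKM. Not all of these are described, and some genes and the results that need them are not reported here. Cxcl14, the neighbours of Ubb-ps and the other -ps genes were named after their values were seen. Nothing in the labels shows that libraries came from separate cultures, so p-values measure the spread between these libraries, and the wt libraries share a line name.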

Additional observations from a re-analysis of the deposited data

How the results depend on the processing

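Over 34 results and 352 values under the alternatives, 287 stayed close to the main value, 52 moved and 13 changed sign. The number of genes called, 0 in each direction by edgeR, rose to 1113 higher and 486 lower with DESeq2. It was 4 lower with no filter on low counts, 1 lower with at least 10 counts in every library, and 1 higher with limma on log2 of FPKM plus 0.1, 0.01 or 1, where 5, 3 and 7 were lower. Within the lists DESeq2 called 4 E1 and E2 enzymes higher, 4 deubiquitinases higher and 2 lower, 1 proteasome subunit higher and 9 lower, 2 heat shock genes higher, 52 ribosomal protein genes lower, and 2 other -ps genes higher and 3 lower. Over all genes tested DESeq2 called 8.39% higher and 3.66% lower.

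On the FPKM scale of limma, at each pseudocount unless one is given, the log2 fold change was -0.06 for Ubb, -0.29 for Ubb plus Ubb-ps, 0.39 for Rps27a (sign changed) and -7.08 for Ubb-ps with 1 added. The list medians there were 0.14 for ubiquitin-like modifiers and 0.02 for proteasome subunits (both changed sign, though both stayed below the median of the common genes), 0.87 for E1 and E2 enzymes (0.83 with 1 added), 0.75 for deubiquitinases with 0.1 added, -1.0 for ribosomal proteins, and 0.06 for the 30 other -ps genes in that fit (0.07 with 1 added). The median of the 11797 common genes moved from 0.21 to 0.61 with this scaling, and the cause of the other moves was not tested. The median of ubiquitin-like modifiers was -0.51 with DESeq2 and -0.49 with no filter. That of other -ps genes was 0.17 with DESeq2 and -0.47 with at least 10 counts in every library, which tested fewer genes. Taken from FPKM, the Ubb-ps share was 14.8% and 15% in the wt and 0.0153%, 0.0844% and 0.126% in null replicates 1, 2 and 3. Ubb-ps had no value with at least 10 counts in every library, since null replicate 1 held 5.47.

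Leaving out 1 library at a time gave -9.3 to -8.27 for Ubb-ps, -0.91 to -0.53 for Ubb and -0.32 to 0.32 for Rps27a, which was positive without wt replicate 1 (0.11) and without null replicate 1 (0.32). The medians ran from -0.62 to -0.41 for ubiquitin-like modifiers, from -0.87 (without wt replicate 1) to -0.5 for proteasome subunits, from 0.25 (without wt replicate 1) to 0.39 for deubiquitinases, and from 0 (without null replicate 2) to 0.66 (without wt replicate 1) for other -ps genes. That of E1 and E2 enzymes ran from 0.04 (without null replicate 2) to 0.4, and was 0.2 and 0.19 without wt replicates 1 and 2 and 0.12 without null replicate 3. That of heat shock genes ran from 0.25 (without null replicate 3) to 0.66, and was 0.3 without wt replicate 1 and 0.33 without null replicate 2. With any 1 library left out, edgeR called 0 genes.

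With the replicate number as a block, edgeR called 0 genes in each direction, Ubb-ps was at -9.48, Rps27a at -0.5, and the medians of deubiquitinases, other -ps genes, E1 and E2 enzymes and heat shock genes at 0.12, 0.15, 0.15 and 0.19. The labels tie no culture, batch or day to the numbers, although both libraries numbered 1 were grown without TSH. Deviations of same-numbered libraries correlated at -0.0881 and -0.0884 over 2 pairs, so the numbers were not taken to pair the samples.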
